A study of Mus musculus with 11 samples.

Results

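Basal cells of the terminal end buds (TEBs) were compared with basal cells of the ducts in 6 of the 11 RNA-seq libraries of the series, 3 libraries from each structure. The remaining 5 libraries, 3 of luminal TEB and 2 of luminal duct cells, entered the same statistical model, where they also set the estimate of spread behind the basal calls, and were used to ask whether a basal change was shared. All cells came from female mice aged 5 weeks on a C57BL/6 background that carried the Ecadherin-GFP reporter allele, with no other treatment. TEBs and ducts were microdissected, each replicate pooled 2 or more mice, and the cells were sorted as Lin–CD29+CD24+, with dim reporter signal defining the basal and bright signal the luminal population. The pooling and the sort limit the comparison, since a library averages several animals and every cell type that falls within the gate.

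TEBs are bulbous structures that lead the pubertal ducts through the fat pad. Their outer layer, formed by cap cells, is continuous with the basal or myoepithelial layer of the trailing duct, where elongated cells contract upon oxytocin release and anchor the epithelium to the basement membrane. Cap cells are known as proliferative cells in which contractile differentiation is incomplete. In bulk libraries, fewer cells of one type and less RNA of that type per cell cannot be told apart.

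The libraries carried the basal label in their keratins. Mean expression of Krt14, a basal keratin, was 2419 counts-per-million (CPM, after TMM scaling of library sizes) in basal duct and 330.2 CPM in basal TEB, against 16.5 and 1.69 CPM in luminal duct and TEB. Trp63, which encodes the basal lineage factor p63, was at 468 CPM in basal duct and 357 CPM in basal TEB, and at 1.82 and 1.03 CPM in the luminal groups. The luminal keratin Krt8 was at 342 and 206 CPM in the basal groups and at 4820.1 and 4905 CPM in luminal duct and TEB.

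Library totals ran from 27989137 to 49221436 counts in the basal groups. The share of counts on genes of the mitochondrial chromosome was 37.5% and 17.8% in basal TEB replicates 1 and 3, whereas it was 4.74% in replicate 2 and lay between 6.66% and 10.9% in the basal duct replicates. Basal duct replicate 2 stood apart in another way, as endothelial, immune, adipocyte and fibroblast markers were highest there. Its 10 endothelial markers summed to 357 CPM, compared with 15.4 and 36.1 CPM in the other duct libraries and 8.04 to 62.8 CPM in TEBs. The endothelial marker Pecam1 was at 2.85, 73.0 and 5.54 CPM in the 3 duct libraries and at 0, 13.01 and 1.40 CPM in the 3 TEB libraries. Summed levels of 11 immune markers (149 against 47.2 and 35.02 CPM) and 8 adipocyte markers (196 against 9.26 and 25.8 CPM) were likewise highest in that duct library, and their part in the results was not tested. The 8 fibroblast markers summed to 247 to 466 CPM in ducts and 144 to 204 CPM in TEBs. None of these 4 lists had a member past the threshold.

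At the threshold used, more genes were called lower than higher in basal cells of TEBs. Of 17370 genes tested, 201 were lower and 29 higher in TEBs at a false discovery rate (FDR) below 0.05 by edgeR's quasi-likelihood test, which is 1.32% of genes in all, 1.16% lower and 0.167% higher. Before adjustment the directions were closer in number, with 1361 genes lower and 1150 higher at a p-value below 0.05 by the same test. The median log2 fold change over all genes was -0.03. The called genes changed by a median of 1.64 log2 units among the 201 lower genes and 1.14 among the 29 higher genes. Contractile, keratin, hemidesmosome and immediate early genes were among those that fell, and cell cycle and cholesterol synthesis genes were among those that rose. For each of the 230 genes the 3 TEB libraries lay outside the range of the 3 duct libraries. Over all genes, libraries did not overlap for 8.88% of genes with TEBs higher and for 11.9% with TEBs lower, so separation of the libraries was more common than a call.

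**Figure D1:**
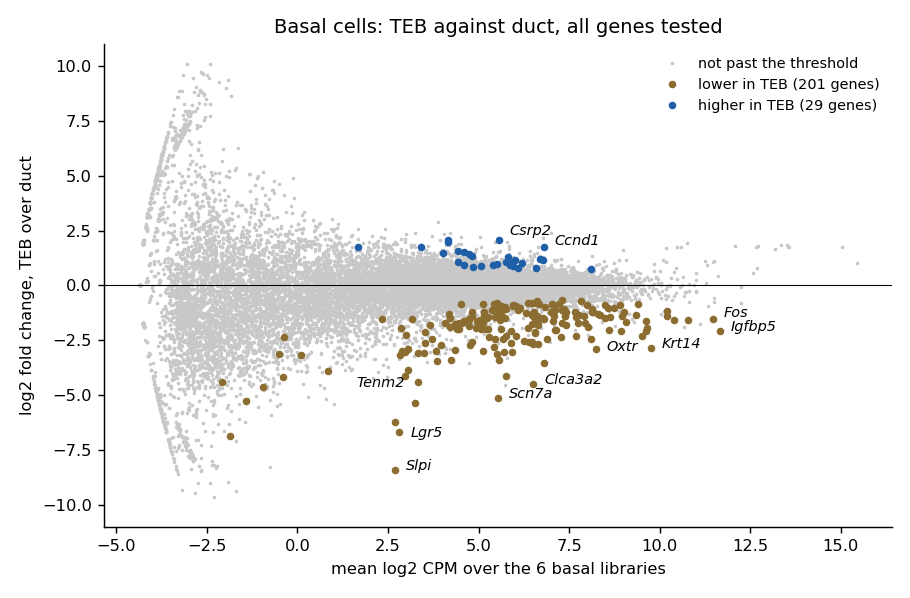
Log2 fold change of basal TEB over basal duct (vertical axis) against the mean log2 CPM over the 6 basal libraries (horizontal axis) for each gene tested. Of the coloured genes, 201 lie below zero and 29 above it, and the lower genes reach -8.41 (Slpi) whereas the higher genes reach 2.08 (Csrp2).

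The number of calls rested on few libraries. Leaving out the basal TEB replicates with the high mitochondrial share left 5 calls, with 1 TEB library remaining, whose spread was then assumed to be that of the other groups. The 4 lower genes called there were Slpi, Fxyd6, Chdh and Vtcn1, all among the 201, and no member of a gene list was called. Without basal duct replicate 2 there were 101 calls (97 lower and 4 higher), and without basal duct replicate 1 there were 90. The luminal libraries mattered as well, since leaving out a luminal TEB library gave 121 to 126 calls, 3 of them higher, and a fit of the 6 basal libraries alone shared 118 of the 201 lower and 5 of the 29 higher genes. With the mitochondrial share as a covariate, 97 of the lower and 2 of the higher genes were still called. Without basal TEB replicates 1 and 3 the median log2 fold change was -1.39 for the 201 lower genes and 1.08 for the 29 higher genes. In each of the 11 fits that left out 1 library, 55 of the lower genes and 1 of the higher genes, Ccnd1, were called.

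Among the deepest decreases were those of Slpi, Lgr5, Grik3 and Scn7a, of which Slpi and Grik3 were chosen after their values were seen. Slpi (Entrez gene 20568, chromosome 2 of mm10, 164354070 to 164356507), which encodes the secretory leukocyte protease inhibitor, was at 222, 171 and 136 CPM in the 3 duct libraries and at 0, 1.12 and 0.196 CPM in the 3 TEB libraries. All TEB libraries were far below all duct libraries, and the count of 0 in TEB replicate 1 allows up to 0.173 CPM (3 counts, counting error only). The log2 fold change of Slpi was -8.41 (standard error 0.75, FDR 0.000917), and it was called in all 24 alternatives. Lgr5, a receptor for R-spondins that amplifies Wnt signals, fell by 6.69 on the log2 scale (standard error 0.95, FDR 0.00585). Reads of Lgr5 are uncertain where another counted gene overlaps it. Grik3, a kainate-type glutamate receptor subunit, was at 84.4 ± 19.6 CPM in ducts (SD, n = 3) and at 1.07 ± 0.923 CPM in TEBs, where replicate 1 had no count (log2 fold change -6.22, FDR 0.00585). Scn7a, a sodium channel family member, was at 325, 287 and 239 CPM in ducts and 7.04, 10.7 and 6.13 CPM in TEBs, which gives -5.15 on the log2 scale (standard error 0.51, FDR 0.00122). For both genes the lowest duct library lay far above the highest TEB library.

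Matn4, which encodes the matrix protein matrilin-4, changed from 66.3 ± 6.80 to 1.59 ± 1.31 CPM (SD, n = 3 each, log2 fold change -5.34, FDR 0.00473). The neighbouring paralogues Clca3a1 and Clca3a2, of the calcium-activated chloride channel regulator family, fell by 4.13 and 4.49 on the log2 scale (FDR 0.00179 and 0.0015), and their shared sequence makes the split of reads between them uncertain. Chil1, a chitinase-like secreted protein, fell by 3.56 (FDR 0.0314), the complement gene C4b by 3.84 (FDR 0.0445) and Cp, the copper-carrying ferroxidase ceruloplasmin, by 3.42 (FDR 0.00692). The teneurin gene Tenm2 changed by -4.42 (FDR 0.0265) and Cdh13, a cadherin anchored to the membrane by a lipid, by -3.08 (FDR 0.0299). Basal TEB replicate 2 was the highest of the TEB libraries for each of these genes. Tppp3, a tubulin-binding protein, was an exception, with 4.39, 3.73 and 4.93 CPM in TEBs against 50.8, 53.8 and 38.0 CPM in ducts (log2 fold change -3.45, standard error 0.36, FDR 0.00133).

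Further large decreases were in Chdh, the choline dehydrogenase of mitochondria (-3.39, FDR 0.00505), Anxa1 (-3.13, FDR 0.00317), Bcl3, an IκB-like co-activator (-3.06, FDR 0.00395), and Ackr3, a scavenging chemokine receptor (-3.05, FDR 0.00317). Ackr3 was at 177 ± 22.2 CPM in ducts and 21.4 ± 5.19 CPM in TEBs (SD, n = 3 each). Vtcn1, a B7 family membrane protein, and Fxyd6, a regulator of the sodium pump, were chosen after their values were seen. Vtcn1 fell by 3.16 (FDR 0.00504) and Fxyd6 by 4.12 (FDR 0.0122).

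**Figure D2:**
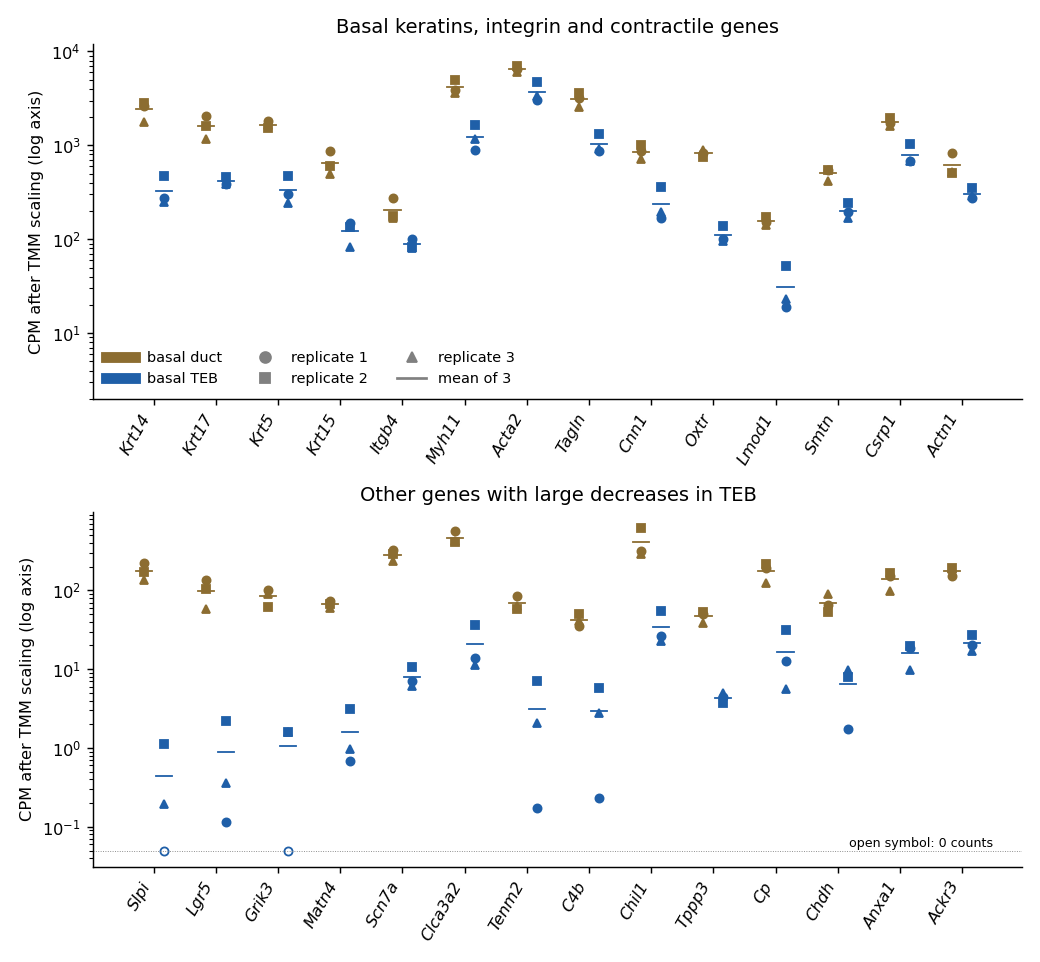
CPM after TMM scaling (log axis) of genes with lower values in basal TEB (Myh11, Acta2 and Cnn1 did not pass the test), with 1 symbol per library and a line at the mean of 3. Duct libraries lie above TEB libraries for every gene drawn, and TEB replicate 2 (blue square) is often the TEB library nearest to the ducts. Symbols at the dotted line stand for 0 counts.

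Keratins led the fall among 18 genes of basal identity. Of these, 5 fell in TEBs and none rose, where 1.16% of all genes fell, with a median log2 fold change of -0.49. Krt14 was at 2614, 2853 and 1789.6 CPM in ducts and 275, 468 and 248 CPM in TEBs. The pattern was the same for Krt15, a keratin of basal epithelial cells, which was at 867, 602 and 497 CPM in ducts and 147, 136 and 83.0 CPM in TEBs. Their log2 fold changes were -2.87 (FDR 0.00766) and -2.43 (FDR 0.00505), and those of Krt5 and Krt17 were -2.30 (FDR 0.0249) and -1.96 (FDR 0.0201). The remaining call was Itgb4 (-1.24, FDR 0.0213), the integrin subunit of hemidesmosomes. The chemokine gene Cxcl14 was at 1904, 1582 and 1526 CPM in ducts and 771, 634 and 627 CPM in TEBs. Its log2 fold change of -1.30 did not pass the test (standard error 0.51, FDR 0.278), whose spread comes from all 11 libraries. The lineage factor Trp63 was at 461, 478 and 466 CPM in ducts and 318, 403 and 349 CPM in TEBs, or -0.39 on the log2 scale (standard error 0.53, FDR 0.793). Itgb1, which encodes CD29, a marker of the sort, was at 1014 ± 53.4 CPM in ducts and 1089.8 ± 51.4 CPM in TEBs (log2 fold change 0.10, FDR 0.822), and the libraries overlapped. Sparc, a collagen-binding matrix protein, had a log2 fold change of -0.62 (FDR 0.617) and Moxd1 of 0.32 (FDR 0.671). Without basal duct replicate 2, 3 of the 18 genes were called, and without basal TEB replicates 1 and 3 none were, with a median of -0.37.

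Genes of the contractile apparatus had lower values in TEBs throughout the list. All 26 genes tested had a negative log2 fold change, and 6 fell at the threshold, where 1.16% of all genes did. For 23 the libraries did not overlap, against 11.9% of all genes with TEBs lower. The list median was -1.15 against -0.03 over all genes. Oxtr (Entrez gene 18430, chromosome 6, 112473683 to 112491035), the oxytocin receptor through which milk ejection is triggered, was at 832, 757 and 893 CPM in ducts and 101, 138 and 95.9 CPM in TEBs. These values give a 7.41-fold decrease (log2 fold change -2.89, standard error 0.32, FDR 0.00175) with no overlap. Lmod1, a leiomodin that nucleates actin filaments in smooth muscle, fell by 2.31 (FDR 0.0129), and Tagln, the actin-binding protein transgelin, by 1.59 (FDR 0.047). The decreases of Smtn (smoothelin), Csrp1 and the cross-linker Actn1 were 1.33, 1.15 and 1.01 on the log2 scale (FDR 0.00821, 0.0302 and 0.0398).

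The filament proteins themselves did not pass the test, although their libraries were separate. The test takes its spread from all 11 libraries, luminal ones included, so a missed threshold is not evidence of no change. Acta2, smooth muscle α-actin, was at 6457, 7032 and 5994 CPM in ducts and 3066, 4714 and 3353 CPM in TEBs (log2 fold change -0.81, standard error 0.39, FDR 0.368). Myh11, the smooth muscle myosin heavy chain, had a log2 fold change of -1.74 (FDR 0.157), the myosin light chain kinase gene Mylk -1.51 (FDR 0.0906) and calponin (Cnn1) -1.84 (FDR 0.0618). In TEBs, replicate 2 was the highest library for Acta2, Myh11, Mylk and Cnn1. The contractile list had no call without basal TEB replicates 1 and 3, where 25 of 26 genes remained negative with a median of -0.87, and 3 calls without basal duct replicate 2. Of 13 genes of SRF, YAP and TEAD regulation, none passed the test in either direction (median -0.32).

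Adhesion to the basement membrane showed decreases in the hemidesmosome, the junction that ties keratin filaments to laminin. Of 6 hemidesmosome genes, 3 fell, to be read, like the other counts of calls here, against the 1.16% of all genes called lower. Besides Itgb4, these were Dst, the plakin that links keratins to the plaque (788, 857 and 813 CPM in ducts, 342, 378 and 213 CPM in TEBs, log2 fold change -1.40, FDR 0.00698) and the tetraspanin gene Cd151 (-0.67, FDR 0.0406). The other 3 hemidesmosome genes were not called, and 2 of the 6 had a positive log2 fold change (list median -0.46). Without basal duct replicate 2, 2 of the 6 were called. Without basal TEB replicates 1 and 3 the list median was -0.38. Lamb3, a chain of the laminin that hemidesmosomes bind, fell by 0.91 (FDR 0.0279). It was the only call among 15 laminin and basement membrane genes. Among 31 collagens, Col12a1, a fibril-associated collagen, and Col4a6, a basement membrane collagen, were called. Col12a1 was at 117, 106 and 118 CPM in ducts and 3.41, 26.5 and 12.8 CPM in TEBs (log2 fold change -2.99, FDR 0.0249), and Col4a6 fell by 1.08 (FDR 0.0261). Mgp, an inhibitor of calcification, was the call among 31 matricellular and fibre proteins (3.99-fold lower, FDR 0.00628). Values in these matrix lists went both ways. Log2 fold changes were positive for 6 of 15 laminin and basement membrane, 11 of 31 collagen and 12 of 31 matricellular genes. In that order, libraries were separate with TEBs higher for 2, 5 and 7 genes and with TEBs lower for 2, 9 and 14. Over all genes the shares were 8.88% and 11.9%. The desmosome plaque gene Pkp1 was 1 of 16 junction genes and fell by 1.95 (FDR 0.00545). Of 18 integrins only Itgb4 was called, with a list median of 0.02, and of 28 matrix enzymes and their inhibitors none was.

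In growth factor pathways few genes were called, to be read against the 1.16% of all genes called lower. The calls were Lgr5 among 34 Wnt receptor and feedback genes, Jag1 among 19 Notch genes, Tgfbr2 and Acvr2a among 31 TGF-β and BMP genes, Gas1 among 14 Hedgehog genes, Igfbp3 and Igfbp5 among 11 IGF genes and Ephb6 among 63 guidance molecules, all lower in TEBs. None was called among 12 Wnt ligands, 13 EGF family and 18 FGF receptor genes. Igfbp5, which binds insulin-like growth factors, was at 6158, 7506 and 6446 CPM in ducts and at 1351, 1987 and 1483 CPM in TEBs. That is a 4.17-fold decrease (log2 fold change -2.06, standard error 0.29, FDR 0.00545) with every TEB library below every duct library. Igfbp3, another binding protein, fell by 2.10 (FDR 0.0374), and the median of the 11 IGF genes was -1.49. Without basal duct replicate 2 that median was -0.47 and 1 gene of the list was called. The Notch ligand Jag1 fell by 0.90 (FDR 0.0426), the TGF-β receptor Tgfbr2 by 0.89 (FDR 0.0249), the activin receptor Acvr2a by 1.01 (FDR 0.0488), the Hedgehog co-receptor Gas1 by 1.73 (FDR 0.015) and the Eph receptor Ephb6 by 1.51 (FDR 0.0114). Of 34 transcription factors of basal and mesenchymal-type cells, Runx1 and Tbx3 were called. Runx1, a regulator of mammary differentiation, was at 314, 305 and 240.2 CPM in ducts and 86.0, 72.7 and 51.4 CPM in TEBs (log2 fold change -2.03, standard error 0.23, FDR 0.00197), and Tbx3, a T-box factor needed for mammary development, fell by 0.82 (FDR 0.0415).

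Genes of the immediate early and stress response were examined next. Transcripts of this kind appear within minutes of growth factor signals or of tissue handling. Of 30 genes, 9 fell and none rose (median -0.92), where 1.16% of all genes fell, and 28 had a negative log2 fold change. Fos, a component of the AP-1 dimer, was at 3908, 5680.1 and 5146 CPM in ducts and 1229, 1897 and 2003 CPM in TEBs. Fos fell by 1.52 on the log2 scale (standard error 0.28, FDR 0.0239), Fosb by 1.58 (FDR 0.00585) and Junb by 1.38 (FDR 0.0265). Gadd45b, a stress sensor, fell by 3.02 (FDR 0.00872), the MAP kinase phosphatase gene Dusp1 by 2.37 (FDR 0.0033) and the stress factor Atf3 by 2.03 (FDR 0.00664). The small heat shock protein gene Hspb1 (-1.54, FDR 0.00225), the mRNA decay factor Zfp36 (-1.33, FDR 0.0384) and the antiproliferative gene Btg2 (-0.87, FDR 0.0496) were also called. Egr1 (-0.93, FDR 0.118) and Jun (-0.77, FDR 0.161) were not called. The list had 5 calls without basal duct replicate 2 and none without basal TEB replicates 1 and 3, where the median was -0.64. The duration of dissociation and sorting is not given per library, so its part was not tested.

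A set of cytokine signalling genes was chosen after its values were seen. It was not one of the gene lists, so how many genes of such pathways did not change was not counted. Over all genes, 1.16% were called lower. Lifr and Il6st, which together form the receptor of leukaemia inhibitory factor, were lower in TEBs. Il6st was at 261, 265 and 252 CPM in ducts and 116, 134 and 87.3 CPM in TEBs (log2 fold change -1.20, standard error 0.17, FDR 0.00628), and Lifr fell by 1.44 (FDR 0.00927). Socs3, a feedback inhibitor induced by STAT3, was at 904, 1125 and 1043 CPM in ducts and 167, 318 and 233 CPM in TEBs (log2 fold change -2.10, standard error 0.25, FDR 0.00225). Cebpd fell by 2.56 (FDR 0.00891) and Cish, a feedback inhibitor of STAT5 signalling, by 1.57 (FDR 0.0496).

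Also picked after their values were seen were calcium-dependent and actin-binding proteins, metallothioneins and secreted factors. The calcium-binding gene S100a6 was at 255 ± 59.3 CPM in ducts and 40.3 ± 10.3 CPM in TEBs (SD, n = 3 each), a 6.33-fold decrease (log2 fold change -2.66, standard error 0.24, FDR 0.000917). Annexin A2 (Anxa2) fell by 2.13 (FDR 0.00122) and the actin capping gene Capg by 1.77 (FDR 0.00197). The related metallothionein genes Mt1 and Mt2, whose products bind zinc and copper, fell by 1.92 and 2.32 (FDR 0.00628 and 0.00545). Prss23, a secreted serine protease, was among the steadiest decreases, at 203, 226 and 181 CPM in ducts and 42.1, 53.5 and 39.0 CPM in TEBs (log2 fold change -2.18, standard error 0.18, FDR 0.000917). The serpin Serpinb5, the chemokine Cx3cl1 and the galectin Lgals9 fell by 1.71, 1.63 and 2.70 (FDR 0.00286, 0.00122 and 0.00122).

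Of all genes, 1.16% were called lower. In the lists of 22 interferon and antigen presentation genes, 26 glycolysis and hypoxia genes and 31 luminal genes, 5 genes were called, all lower. They were the class I heavy chains H2-K1 (-1.81, FDR 0.0137) and H2-D1 (-1.50, FDR 0.00585), whose reads may be shared with related loci, the hypoxia factor Epas1 (-2.47, FDR 0.0157), the phosphofructokinase Pfkp (-1.41, FDR 0.0389) and Krt18 (-1.98, FDR 0.00197). Krt18 was at 77.2 CPM in basal duct and 19.6 CPM in basal TEB, and the libraries did not overlap. Its luminal log2 fold change of -0.71 did not pass the test (FDR 0.17). The study stated that Krt8 and Krt18 expression did not differ between these structures, without naming a cell population. For the interferon list, the median log2 fold change was -0.70, and it was -0.35 without basal duct replicate 2. Cytosolic ribosomal protein genes (82 tested, median 0.08) and nuclear genes of oxidative phosphorylation (79 tested, median 0.15) had no call. The 15 mitochondrially encoded genes had a median of 1.76 with no call, and their median turned to -1.06 without basal TEB replicates 1 and 3. The 7 pericyte, 4 erythroid, 4 Schwann cell and 9 skeletal muscle markers had no call.

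Among the 29 genes higher in TEBs, Ccnd1 was the one called without each library in turn. Ccnd1 (Entrez gene 12443, chromosome 7, 144929931 to 144939831), the cyclin that carries cells through G1, was at 46.5, 62.9 and 77.8 CPM in ducts and 264, 169 and 189 CPM in TEBs. This was a 3.32-fold increase (log2 fold change 1.73, standard error 0.23, FDR 0.00374), and across the fits that left out 1 library it stayed between 1.52 and 1.92. Ccnd1 was the only call among 16 G1 cyclins, CDK inhibitors and Myc genes, where 0.167% of all genes were called higher. Csrp2, a LIM protein of the same family as Csrp1, had the largest rise, from 15.5, 17.1 and 40.4 CPM to 133, 78.7 and 97.4 CPM (log2 fold change 2.08, standard error 0.36, FDR 0.0165), whereas Csrp1 fell. The kinetochore gene Cenph, the centriole gene Stil and Birc5, which encodes survivin of the chromosomal passenger complex, rose by 2.05, 1.59 and 1.48 (FDR 0.0299, 0.0443 and 0.0415). Birc5 was at 9.76, 6.03 and 14.4 CPM in ducts and 23.7, 30.4 and 30.1 CPM in TEBs.

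The replication checkpoint gene Topbp1 rose by 0.79 (FDR 0.0445), the splicing factor Srsf1 by 0.73 (FDR 0.0339), and the Sm-like genes Lsm4 and Lsm6 by 0.90 and 1.33 (FDR 0.0302 and 0.0496). Srsf1 and Lsm4 were named after their values were seen, as were Topbp1 and the signalling adaptor Traf4 (0.93, FDR 0.0354). Of 21 genes of cholesterol synthesis, 2 rose, where 0.167% of all genes did, and 20 had a positive value. The median log2 fold change of the list was 0.83, and without basal duct replicate 2 it was 0.46 with no call. Fdps, which makes the farnesyl diphosphate used in that pathway, was between 11.7 and 17.2 CPM in the 3 duct libraries and between 29.7 and 33.9 CPM in the 3 TEB libraries. It rose by 1.08 on the log2 scale (standard error 0.22, FDR 0.0411), and its libraries did not overlap. Insig1, the feedback protein that retains SREBP, had a log2 fold change of 1.20 (FDR 0.0724). The remaining genes with large increases were Tmem54 (1.99, FDR 0.0196), Thsd4 (1.77, FDR 0.0331), Arhgap40 (1.53, FDR 0.0302), Coro2a (1.43, FDR 0.0318), Fam210b (1.31, FDR 0.027), the RNA-binding protein gene Celf2 (1.22, FDR 0.0459) and Jpt2 (1.14, FDR 0.0261).

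**Figure D3:**
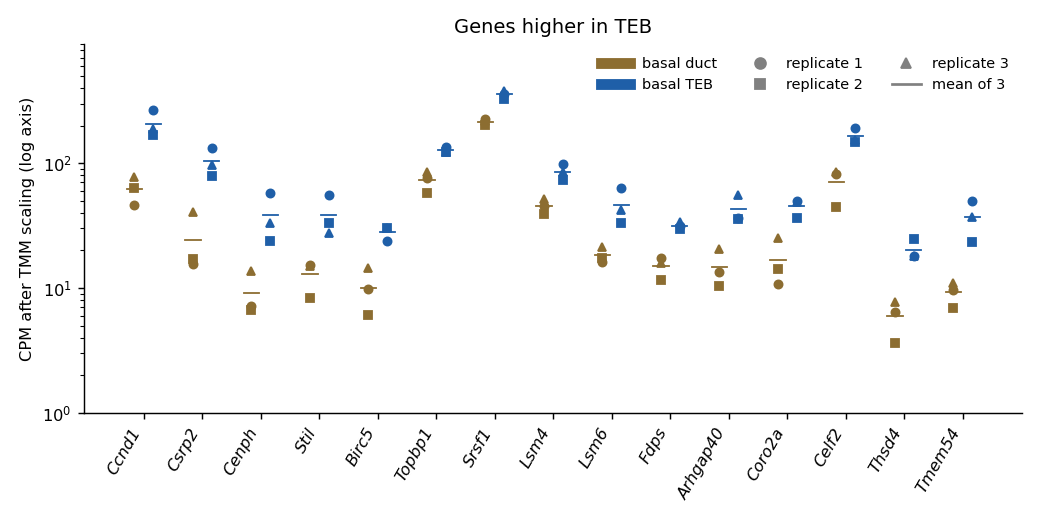
CPM after TMM scaling (log axis) of 15 of the 29 genes higher in basal TEB, with 1 symbol per library and a line at the mean of 3. All 3 TEB libraries lie above all 3 duct libraries for each gene, and Ccnd1 shows a 3.32-fold difference of means on the fitted scale.

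Cell cycle lists had nearly uniform signs and few calls. All 39 mitosis genes had a positive log2 fold change (median 0.82), 1 of them, Birc5, past the threshold, and 35 of 37 S phase genes were positive (median 0.66) with none past it. Libraries were separate with TEBs higher for 16 mitosis and 15 S phase genes, against 8.88% of all genes. Over all genes, 0.167% were called higher. Mki67, the proliferation marker, was at 311, 117 and 338 CPM in ducts and 456, 492 and 725 CPM in TEBs (log2 fold change 1.13, standard error 0.34, FDR 0.156). The mitotic kinase gene Cdk1 was at 59.4, 15.8 and 52.3 CPM in ducts and 95.3, 108 and 108 CPM in TEBs (log2 fold change 1.29, FDR 0.131). Basal duct replicate 2 was the low library for both. Summed over the 39 mitosis genes, expression was 2052, 696 and 2020.0 CPM in the 3 duct libraries and 2293, 3068 and 3183 CPM in the 3 TEB libraries. Without basal duct replicate 2, the median was 0.42 for mitosis and 0.40 for S phase, with 38 of 39 and 34 of 37 genes positive. Without basal TEB replicates 1 and 3, all 39 and all 37 genes were positive, with medians of 0.95 and 0.65.

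**Figure D4:**
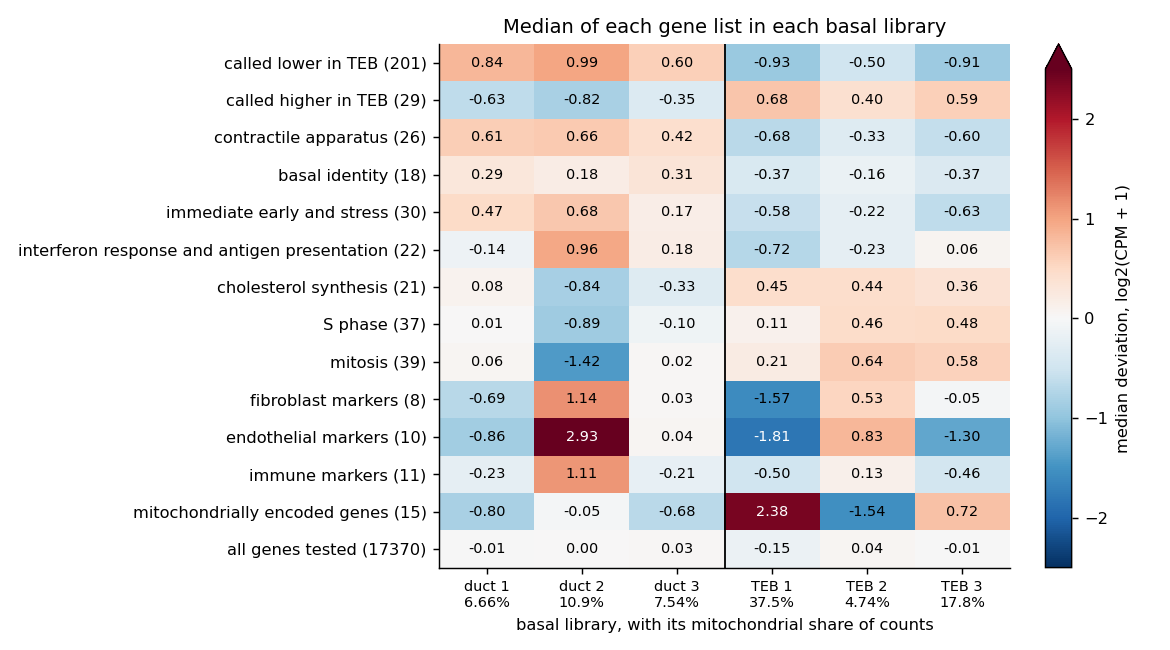
Median over the genes of each list (number of genes in parentheses) of log2(CPM + 1) minus that gene's mean over the 6 basal libraries, for each basal library with its mitochondrial share. Contractile and basal identity genes are positive in all 3 duct libraries and negative in all 3 TEB libraries, whereas mitosis genes are low in duct replicate 2 alone (-1.42) and endothelial markers are high there (2.93).

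Promoters of the lists were examined for sequence, since S phase and mitosis genes are classic targets of E2F factors and of the complex that binds the cell cycle homology region (CHR), and contractile and immediate early genes of serum response factor (SRF) at the CArG box. RefSeq promoters (GRCm38.p6) were matched for 12759 of the tested genes, and the 250 bases before each transcription start were searched on both strands. The CHR letters TTTGAA were found in 10 of 32 mitosis genes (31.2%) and in 13.4% of all these genes. The E2F letters TTTCGCGC or TTTGGCGC were found in 6 of 28 S phase genes (21.4%) and in 1.36% of all. A CArG box, which is CC, 6 bases of A or T, and GG, was found in 3 of 23 contractile genes (13.04%), in 2 of 25 immediate early and stress genes (8%) and in 1.48% of all. Such matches describe these windows and are not binding sites. A gene with several RefSeq starts was counted if any of its windows matched, and the sequences below come from a start with a match. For Orc1, Myl6 and Egr2 the window shown lies inside the span of the gene.

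The 120 bases just before the start are given for the matched genes of highest mean expression among those with a match near the start, with matches on either strand in capitals, 5′ to 3′ along the gene. For mitosis these are Mki67 (chr7:135716380-135716499, minus strand), Top2a (chr11:99024190-99024309, minus strand) and Kif11 (chr19:37376262-37376381, plus strand), whose log2 fold changes were 1.13, 0.82 and 1.14, none past the threshold.
Mki67: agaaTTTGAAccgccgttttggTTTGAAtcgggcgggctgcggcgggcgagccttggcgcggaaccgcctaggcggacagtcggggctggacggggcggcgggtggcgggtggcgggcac
Top2a: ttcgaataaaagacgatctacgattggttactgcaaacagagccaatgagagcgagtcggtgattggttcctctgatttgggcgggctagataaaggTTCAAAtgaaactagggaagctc
Kif11: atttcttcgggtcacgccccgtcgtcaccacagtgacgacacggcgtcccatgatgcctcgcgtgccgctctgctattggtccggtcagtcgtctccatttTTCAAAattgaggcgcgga

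For S phase the genes are the helicase subunit gene Mcm6 (chr1:128359706-128359825, minus strand), the clamp loader gene Rfc3 (chr5:151651209-151651328, minus strand) and the origin recognition gene Orc1 (chr4:108579334-108579453, plus strand), with log2 fold changes of 0.66, 0.21 and 1.75, none past the threshold. In Mcm6 the first run of capitals holds overlapping matches, and another match lies nearer the start.
Mcm6: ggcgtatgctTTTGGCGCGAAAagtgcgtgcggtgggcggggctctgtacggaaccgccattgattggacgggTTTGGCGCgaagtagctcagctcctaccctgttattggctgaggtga
Rfc3: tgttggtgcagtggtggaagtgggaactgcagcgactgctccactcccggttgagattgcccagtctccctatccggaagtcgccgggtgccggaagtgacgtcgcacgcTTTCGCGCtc
Orc1: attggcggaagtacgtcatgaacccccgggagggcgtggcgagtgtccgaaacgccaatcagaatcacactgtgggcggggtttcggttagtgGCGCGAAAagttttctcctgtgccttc

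For the CArG box the genes are the myosin light chain gene Myl6 (chr10:128493010-128493129, minus strand), Zfp36 (chr7:28379229-28379348, minus strand) and Egr2 (chr10:67537446-67537565, plus strand), with log2 fold changes of -0.57, -1.33 and -0.39, of which that of Zfp36 passed the threshold.
Myl6: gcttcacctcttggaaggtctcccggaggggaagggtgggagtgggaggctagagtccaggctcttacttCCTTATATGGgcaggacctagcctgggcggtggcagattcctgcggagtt
Zfp36: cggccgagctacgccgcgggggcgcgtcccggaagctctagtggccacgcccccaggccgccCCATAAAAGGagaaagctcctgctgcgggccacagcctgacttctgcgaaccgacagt
Egr2: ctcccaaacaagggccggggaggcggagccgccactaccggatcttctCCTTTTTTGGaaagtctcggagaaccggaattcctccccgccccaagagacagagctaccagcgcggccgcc

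The study named examples of genes that marked TEB or ductal basal cells in its single-cell data, and these were looked up in the bulk libraries. The study tested them in the single-cell data. As it also had the bulk libraries in hand, the lists are not taken as independent evidence of direction. All 4 TEB examples were higher in each TEB library than in each duct library, against 8.88% of all genes, but none passed the test. As the spread was that of all 11 libraries, a missed call is not evidence against the single-cell result. Nrg1, a ligand of ErbB receptors, was at 57.9, 31.3 and 77.4 CPM in ducts and 164, 116 and 142 CPM in TEBs (log2 fold change 1.34, standard error 0.34, FDR 0.0936). Sema3b, a secreted semaphorin, had a log2 fold change of 1.63 (FDR 0.188), the homeobox gene Meox1 of 1.44 (FDR 0.385) and the cyclin gene Ccnd2 of 0.95 (FDR 0.493). The 6 ductal examples were likewise separate in the opposite direction, against 11.9% of all genes, without a call. Among them were Postn (log2 fold change -4.29, FDR 0.0575), Col16a1 (-0.30, FDR 0.558) and Myl9 (-0.55, FDR 0.655), besides Myh11, Mylk and Acta2. For Myh11 and Mylk the study also reported stronger protein staining in the basal layer of ducts, by co-immunofluorescence of sections. From its bulk RNA-seq it stated, with data not shown, that TEB basal cells were less differentiated.

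Whether a basal change was shared by luminal cells was asked with the luminal TEB and duct libraries and with a test of the difference between the basal and luminal changes (interaction). Of the 201 lower genes, 24 were also called lower in luminal TEBs and 5 were called higher there, where 0.771% of all genes tested were called lower and 0.639% higher in luminal TEBs. Of the 29 higher genes, none was called in luminal cells in either direction, and 21 had the same sign. The interaction was called for 36 of the 201 and 2 of the 29, against 0.443% (77) of all genes tested. Since these genes were selected for a basal change, a larger share of differences among them is built into the choice and nothing is read from it.

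Tppp3 (luminal log2 fold change -3.49, FDR 0.00377), Oxtr (-3.09, FDR 0.00414) and Igfbp5 (-2.33, FDR 0.00864) were among the genes called lower in both basal and luminal TEB libraries. So were Tcim (-2.02, FDR 0.00377, with -1.37 and FDR 0.00656 in basal cells) and the cationic amino acid transporter Slc7a2 (-2.16, FDR 0.00517, with -1.40 and FDR 0.015). For Tppp3 the difference between the changes was 0.04 with a standard error of 0.49. The basal keratins Krt5, Krt14, Krt15 and Krt17 were also called lower in luminal TEBs, at luminal levels of 35.8 CPM or less. Contractile genes had a luminal median of -1.89 and basal identity genes of -1.27, against 0.04 over all genes. Fewer basal cells in luminal TEB than in luminal duct libraries and less RNA per luminal cell cannot be told apart here.

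The 5 genes called in opposite directions were Tgfbr2, Lamb3, Prss23, Ehd2 and Emp2. Tgfbr2 was at 84.5 ± 7.01 CPM in basal duct and 45.5 ± 6.09 CPM in basal TEB, whereas its mean was 147 CPM in luminal duct and 352 CPM in luminal TEB (luminal log2 fold change 1.26, FDR 0.0122). The difference between the changes was -2.15 (standard error 0.25, FDR 0.00563). Lamb3 changed by -0.91 in basal and by 1.01 in luminal cells (interaction FDR 0.0126), Prss23 by -2.18 and 0.91 (FDR 0.00178), Ehd2, a membrane-remodelling ATPase, by -1.14 and 1.23 (FDR 0.0126), and the tetraspan gene Emp2 by -0.85 and 1.04 (FDR 0.0126). The luminal duct group rests on 2 libraries, of which replicate 3 had a mitochondrial share of 28.5%. A fit without that replicate leaves 1 luminal duct library, so its part in these differences cannot be told. With the mitochondrial share as a covariate, 3 genes were called for the interaction in place of 77. Leaving out each library in turn moved the interaction count between 7 (without basal duct replicate 1) and 753 (without luminal duct replicate 1).

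**Figure D5:**
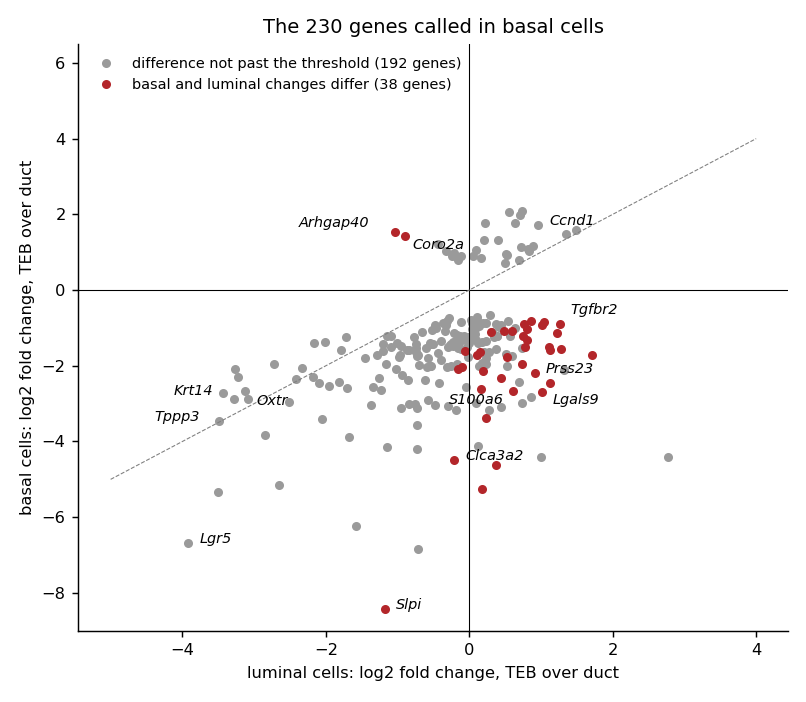
Log2 fold change of TEB over duct in basal cells (vertical axis) against that in luminal cells (horizontal axis) for the 230 genes called in basal cells, with the line of equality dashed. Red marks the 38 genes whose basal and luminal changes differed by the interaction test, among them Slpi, Clca3a2, Lgals9 and S100a6, and Tppp3 lies on the line of equality.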

How the data were processed

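Each library was made from about 10 ng RNA and read as 80 bp pairs. The authors used Rsubread to align the reads to mm10 and featureCounts to count them per Entrez gene with the inbuilt RefSeq annotation, so the deposited values are whole counts that were not normalized. No strand setting is given in the sources used here. The members and gene lists were chosen with earlier results of these data known.

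Versions were 4.3.3 (R), 4.0.16 (edgeR), 3.58.1 (limma) and 1.42.0 (DESeq2). The filterByExpr function (minimum count 10, total 15) retained 17370 of 27179 genes, and TMM scaling was applied. All 4 groups (11 libraries) shared 1 model, tested by edgeR's quasi-likelihood F test with Benjamini-Hochberg adjusted p-values (FDR), called below 0.05. Standard errors were derived from the fold change and F. The scripts were tested on simulated data.

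The naming rule took the 15 largest changes each way (mean log2 CPM of at least 3, no overlap of libraries, no predicted names), the called members of 41 lists, the 3 members of highest CPM in each list and the examples of the study, 183 genes in all. Apart from Krt8 and Pecam1, the text names 124 genes, of which 34 lie outside the rule and were chosen after their values were seen or for their promoters. Alternatives were other scalings, filters, tests, thresholds and sets of libraries, the replicate number as a block, removal of mitochondrial genes and the mitochondrial share as a covariate. Some genes given by the rule are not reported here. ATAC-seq and single-cell data were not analysed here.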

Additional observations from a re-analysis of the deposited data

Results flagged for a closer look

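The genes below are those described in the report whose change between TEBs and ducts differed between basal and luminal cells by the interaction test of edgeR at an FDR below 0.05 (Benjamini-Hochberg over 17370 genes). Each value is the basal minus the luminal log2 fold change, and the luminal duct group has 2 libraries. With the mitochondrial share as a covariate 3 genes of all tested were called, so most of the genes listed here lost their call.

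The largest difference was in Slpi (-7.24), which was at 3.09 CPM in luminal duct and 1.36 CPM in luminal TEB. It was followed by Clca3a2 (-4.28), Lgals9 (-3.71), Chdh (-3.62), Epas1 (-3.58), S100a6 (-3.27) and Prss23 (-3.09). Smaller negative differences were found for Mt2 (-2.75), Pkp1 (-2.69), Ephb6 (-2.62), Ehd2 (-2.37), Anxa2 (-2.31), Capg (-2.30), H2-D1 (-2.28) and Tgfbr2 (-2.15). The differences of Socs3, Lamb3, Emp2, Serpinb5, Cx3cl1, Col4a6 and Jag1 were -1.94, -1.92, -1.89, -1.81, -1.78, -1.68 and -1.67. In these genes the basal change was negative, and the luminal change was positive or closer to zero.

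The difference was positive in Arhgap40 (2.56) and Coro2a (2.33), which were higher in basal TEBs and had luminal log2 fold changes of -1.03 and -0.90 that did not pass the test (FDR 0.133 and 0.166).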

How the results depend on the processing

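The numbers of calls were 230 in all, 29 higher, 201 lower and 77 for the interaction. Without composition normalization they were 57, 1, 56 and 15, and the median of all genes was -0.16 in place of -0.03. The likelihood ratio test gave 707, 211, 496 and 629, the Wald test of DESeq2 874, 226, 648 and 696, limma voom 601, 187 and 414, and voom with sample quality weights 412, 95 and 317. The share called higher, 12.6%, was 1.75% without composition normalization, 31.1% by voom, 29.8% by the likelihood ratio test and 25.9% by DESeq2. No filter gave 141 interaction calls, and the 6 basal libraries alone gave 14 higher genes. With the mitochondrial share as a covariate the numbers were 110, 7 (2 of them among the 29), 103 (97 among the 201) and 3, and without basal TEB replicates 1 and 3 they were 5, 1, 4 and 18. An FDR of 0.01 gave 77, 1 and 76, and a fold change above 1.5 gave 72, 1 and 71. Leaving out each library in turn gave 59 to 399 calls in all, 1 to 63 higher, 58 to 336 lower and 7 to 753 for the interaction. Counts without basal TEB replicate 3 were 59 and without basal TEB replicate 2 399, and without a luminal duct library 356 or 349. The cause was not tested.

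Same-numbered basal duct and TEB libraries had correlations of 0.114, 0.115 and 0.0596 in their deviations. Those with different numbers had lower values, from -0.152 to 0.0345. The labels do not say whether a shared number means shared mice, and these values do not settle it. The main fit did not use the numbers as pairs. With the replicate number as a block, 204 genes were called (19 higher, 185 lower) and 46 for the interaction.

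The log2 fold change reversed, with no call, for Trp63 with the mitochondrial covariate (0.042), Itgb1 without composition normalization (-0.057), and Rfc3 without basal TEB replicate 2 (-0.017) or 3 (-0.26), where leaving out 1 library gave -0.26 to 0.70. Depth limits genes of few counts, since 25.5% of tested genes had no count in basal TEB replicate 1.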
